A study of Arabidopsis thaliana with 32 samples.

Results

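Rosettes of Arabidopsis thaliana seedlings that overexpress IMA1 were compared with rosettes of an EYFP control line after both had been moved to medium without iron. The difference of each gene rests on 4 of the 32 RNA sequencing libraries of the study, 2 of each line. The spread behind each p-value came from all 16 rosette libraries, which include other lines and control medium. Of the 33607 loci in the table that holds these 4 libraries, 19545 had a mean of at least 0.5 RPKM (a read density per unit of transcript length and of library size) and were tested, and no measured difference was used to choose them. Inserted construct features were left out of the test.

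The study profiled roots and rosettes of 4 lines on iron-replete and iron-deficient plates, with 2 libraries in each of 16 groups. The IMA1 OE line carries the IMA1 open reading frame behind the 35S promoter (35spro:IMA1 ORF), and the EYFP OE line carries a yellow fluorescent protein behind the same promoter (35spro:EYFP), so that both are transgenic. Also used below are the IMA3 OE line, which overexpresses a related peptide, and the opt3-2 line, in which the iron transporter gene OPT3 carries an insertion. All seedlings grew for 10 days under continuous light on complete ES medium, with 25 seedlings on a plate, and whole rosettes were taken 72 h after transfer to fresh control medium or to medium that lacked iron and held the iron chelator ferrozine. The labels give ferrozine as 100 µM in one place and 300 µM in another, which was not resolved. The 35S promoter is active in most tissues, so IMA1 was not limited to the cells in which it is normally made. The number of independent transformants behind each line is not given in the sources used here. The labels do not say whether the 2 libraries of a group came from separate cultures, so each p-value reflects only how far the libraries of a group lay apart, and that may be technical.

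IRON MAN (IMA) peptides are short peptides that promote the iron deficiency response of plants. They bind the ubiquitin ligase BRUTUS (BTS), which otherwise sends a group of basic helix-loop-helix (bHLH) transcription factors to degradation. Those factors switch on the genes of the response, among them the bHLH38, bHLH39, bHLH100 and bHLH101 factors that act with FIT in roots. In leaves, iron goes mainly into chloroplasts, where it is used in ferredoxins, iron-sulfur proteins and heme enzymes, and surplus iron is held in ferritin.

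In iron-deficient rosettes, 104 of 19545 loci differed between IMA1 OE and EYFP at an adjusted p under 0.05, which is 0.532% of the loci tested (limma's moderated test on log2(RPKM + 0.5), Benjamini-Hochberg adjustment). Of these, 58 were higher in IMA1 OE (0.297% of loci tested) and 46 were lower (0.235%). At least 2-fold differences made up 90 of the calls, 46 higher and 44 lower. These calls use the spread of all 16 rosette libraries, and far fewer loci passed with the spread of the IMA1 OE and EYFP groups alone, as given in the last section. Among the genes that were lower were IMA2 and IMA3, 4 bHLH factors of the iron deficiency response, several loci of unknown function such as AT3G01345 and, with smaller differences, BTS, PYE and genes of iron chelation and long-distance transport. Among the genes that were higher were ferritins, plastid iron-sulfur proteins and ascorbate peroxidases. In whole rosettes, fewer cells of a type and less RNA per cell cannot be told apart. The 2 libraries of each line did not overlap at any of the 104 loci, and the same held at 6669 of the loci tested (34.1%). The median log2 difference of all loci tested was -0.03. The call closest to the threshold was DRL1, at a log2 difference of 0.83 and an adjusted p of 0.047, and the closest locus beyond it was AT5G16200, at 1.33 and 0.0501 (limma).

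**Figure D1:**
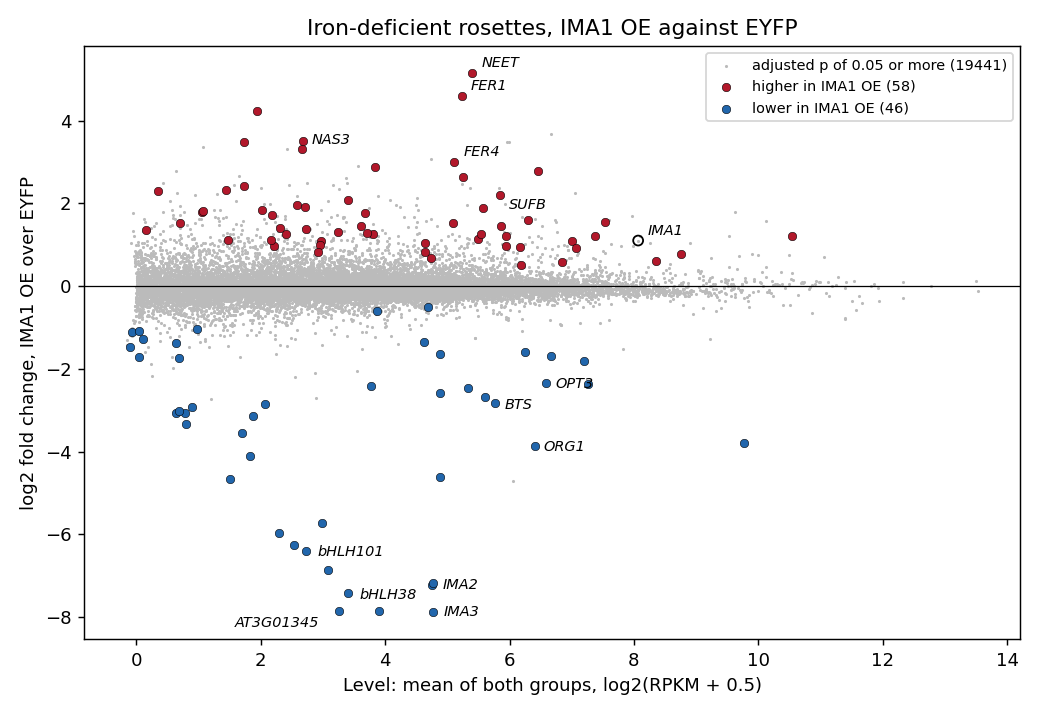
The log2 difference of each tested locus, IMA1 OE minus EYFP in iron-deficient rosettes, is plotted against its mean log2(RPKM + 0.5), with loci past an adjusted p of 0.05 in colour and the leading genes named. The largest negative values belong to IMA3, bHLH100 and AT3G01345 at -7.88, -7.84 and -7.84, and the largest positive one to NEET at 5.15, while the median of all loci lies at -0.03.

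The transgene features matched the labels. The IMA1 construct had 212 and 197 RPKM in the IMA1 OE libraries, against 0.02 and 0.03 RPKM in the EYFP libraries. The EYFP construct had 0.01 and 0.04 RPKM in IMA1 OE, against 130 and 139 RPKM in EYFP. The IMA1 locus itself (AT1G47400, chr1:17385707-17386485 on TAIR10.1) had 417 and 357 RPKM in IMA1 OE, against 144 and 226 RPKM in EYFP. Both IMA1 OE values were above both EYFP values, but the log2 difference of 1.1 (SE 0.53) did not pass the test (limma, adjusted p = 0.672). On control medium the locus had 484 and 347 RPKM in IMA1 OE, against 9.01 and 2.03 RPKM in EYFP, a log2 difference of 6.39 (SE 0.53, limma, adjusted p = 0.000951). In iron-deficient EYFP rosettes IMA1 was therefore already at 144 and 226 RPKM without the transgene. How reads were divided between the locus and the construct feature is not given in the sources used here, so native and transgenic IMA1 transcript cannot be told apart at the locus.

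The sorted values of the 4 libraries nearly coincided (a median relative range of 1.15% over values of at least 0.5 RPKM), which leaves the deposited values on a common scale, and the depth of each library is unknown. RNA integrity numbers of the rosette samples were 8.3 to 8.7 per the labels. The source field of these samples names roots, while titles and tissue fields name rosettes. The summed RPKM of 8 root markers was 157 and 100 in IMA1 OE rosettes, against 139 and 148 in EYFP rosettes, compared with 3430 and 4380 in IMA1 OE roots, against 2540 and 2160 in EYFP roots, and the root hair genes COBL9 and EXPA7 stayed under 0.5 RPKM in all 4 rosette libraries. The 5 leaf markers summed to 24500 and 22500 RPKM in IMA1 OE, against 24500 and 22600 RPKM in EYFP. No member of the lists of root, leaf, floral, phloem, xylem or dividing-cell markers passed the test. One library stood apart in 3 classes of transcript. The 4 loci annotated as rRNA summed to 2364 and 8831 RPKM in IMA1 OE, against 8654 and 6658 RPKM in EYFP. The 133 loci of the plastid genome summed to 1805 and 7470 RPKM in IMA1 OE, against 5861 and 4377 RPKM in EYFP, and the 146 loci of the mitochondrial genome to 87.8 and 252.4 RPKM in IMA1 OE, against 157.4 and 144.3 RPKM in EYFP. The low value in all 3 classes was IMA1 OE replicate 1, and why this library stood apart was not tested. Without that library 32 loci passed in place of 104, a fit in which the remaining IMA1 OE library is assumed to vary like the other groups.

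**Figure D2:**
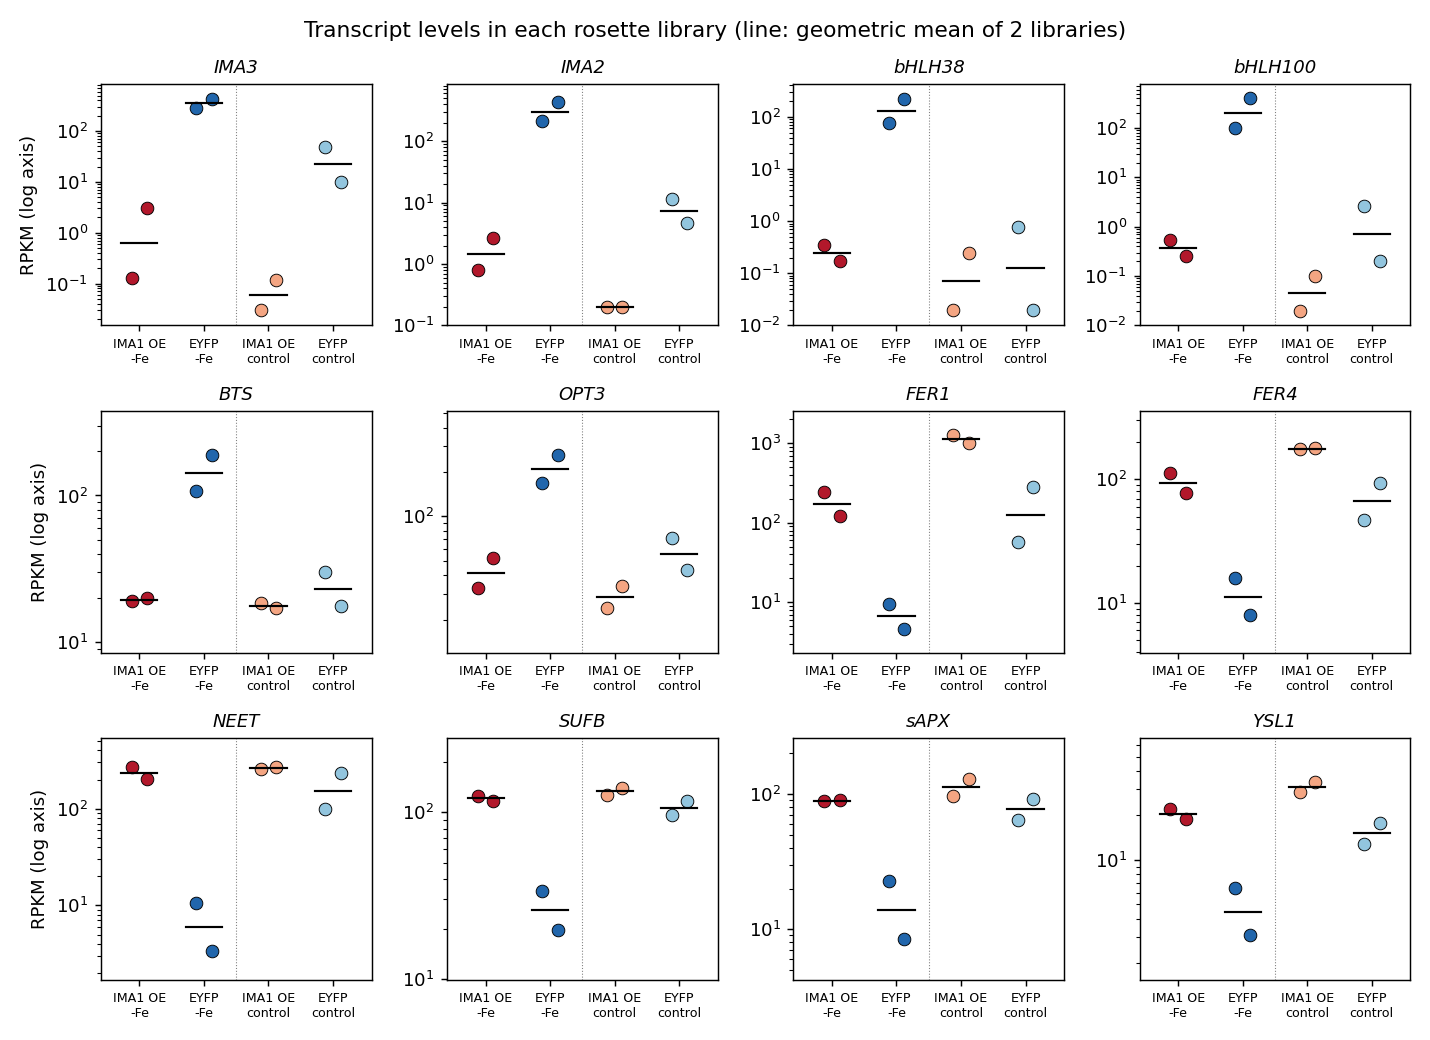
RPKM on a log axis for 12 genes, 1 panel each, in the 2 IMA1 OE and 2 EYFP rosette libraries without iron (left of the dotted line) and on control medium (right of it), each medium from its own table. Points are libraries and lines the geometric mean of a group. Without iron, IMA3 reads 0.13 and 3.02 in IMA1 OE against 286 and 429 in EYFP, and NEET reads 269 and 203 in IMA1 OE against 10.6 and 3.41 in EYFP, so the groups sit apart in opposite directions.

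Of the 23 genes listed as regulators of the iron deficiency response, 19 were tested, 9 were lower in IMA1 OE, none was higher, and their median log2 difference was -0.93, against -0.03 over all loci tested. The list was drawn up with earlier results of these data known, and its direction is no independent evidence. IMA3 (AT2G30766, chr2:13107583-13110480 on TAIR10.1), a peptide gene of the same family as IMA1, had 0.13 and 3.02 RPKM in IMA1 OE, against 286 and 429 RPKM in EYFP (log2 difference -7.88, SE 0.78, limma, adjusted p = 0.000768). IMA2 (AT1G47395, chr1:17382998-17383830), which lies beside IMA1, had 0.8 and 2.68 RPKM in IMA1 OE, against 211 and 433 RPKM in EYFP (-7.22, SE 0.47, limma, adjusted p = 6.15e-05). The IMA1 OE rosettes thus held high IMA1 transcript while the other 2 tested members of its family stood at no more than 3.02 RPKM.

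The 4 related bHLH genes, whose products pair with FIT to activate iron uptake genes, were close to 0 in both IMA1 OE libraries and between 39.6 and 398 RPKM in both EYFP libraries. bHLH100 had 0.54 and 0.25 RPKM in IMA1 OE, against 103 and 398 RPKM in EYFP (log2 difference -7.84, SE 0.65, limma, adjusted p = 0.000317). bHLH38 had 0.35 and 0.17 RPKM in IMA1 OE, against 76.7 and 217 RPKM in EYFP (-7.42, SE 0.62, limma, adjusted p = 0.000317). bHLH39 lies next to bHLH38 in the genome and had 0.28 and 0.16 RPKM in IMA1 OE, against 46.8 and 149 RPKM in EYFP (-6.87, SE 0.65, limma, adjusted p = 0.000567). bHLH101 had 0.18 and 0.22 RPKM in IMA1 OE, against 39.6 and 85.5 RPKM in EYFP (-6.39, SE 0.66, limma, adjusted p = 0.000984). In EYFP, replicate 2 was the higher library for all 4 genes, and the IMA1 OE values lay below 1 RPKM, where the added 0.5 RPKM holds the fold change down.

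Regulators that act with the IMA peptides moved the same way but less far. BTS, the ubiquitin ligase bound by the peptides, had 19.1 and 19.9 RPKM in IMA1 OE, against 107 and 189 RPKM in EYFP (log2 difference -2.83, SE 0.27, limma, adjusted p = 0.000567). PYE (POPEYE), a bHLH repressor of iron homeostasis genes, had 5.94 and 4.91 RPKM in IMA1 OE, against 32.8 and 29.6 RPKM in EYFP (-2.42, SE 0.23, limma, adjusted p = 0.000608). BTSL1, a relative of BTS known mainly from roots, was low in both lines, with 0.4 and 0.51 RPKM in IMA1 OE, against 1.47 and 2.58 RPKM in EYFP (-1.37, SE 0.22, limma, adjusted p = 0.0185). Its call was lost when IMA1 OE replicate 1 was left out (limma, adjusted p = 0.211). bHLH11, a bHLH repressor picked after its values were seen, ran the other way without passing, with 1.91 and 2.61 RPKM in IMA1 OE, against 0.72 and 0.77 RPKM in EYFP (1.14, limma, adjusted p = 0.068). The remaining regulators tested, apart from IMA1, did not pass and had log2 differences between -0.93 and 0.14.

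To show what lies in front of the genes that moved, the 150 bases before the annotated start of 6 of them were read from the TAIR10.1 genome of RefSeq, 5′ to 3′ on the strand of the gene. The capitals mark the palindrome CACGTG, the G-box, a core element bound by many bHLH and bZIP factors, which reads the same on both strands and was searched with no mismatch. The genes were picked after it was seen which windows hold the motif, so they illustrate and do not test it. No other annotated gene falls in these windows.
BTS (AT3G18290), chr3:6273816-6273965, plus strand: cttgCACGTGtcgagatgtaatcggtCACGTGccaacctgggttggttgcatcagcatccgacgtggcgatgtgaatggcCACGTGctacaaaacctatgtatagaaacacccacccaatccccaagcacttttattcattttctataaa
OPT3 (AT4G16370), chr4:9250344-9250493, minus strand: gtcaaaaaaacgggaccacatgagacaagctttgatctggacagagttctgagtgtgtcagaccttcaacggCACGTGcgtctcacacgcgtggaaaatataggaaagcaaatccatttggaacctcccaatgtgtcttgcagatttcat
bHLH38 (AT3G56970), chr3:21085246-21085395, minus strand: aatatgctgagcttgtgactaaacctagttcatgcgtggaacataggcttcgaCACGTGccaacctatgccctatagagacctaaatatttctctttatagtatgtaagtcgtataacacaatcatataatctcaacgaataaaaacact
bHLH100 (AT2G41240), chr2:17199455-17199604, minus strand: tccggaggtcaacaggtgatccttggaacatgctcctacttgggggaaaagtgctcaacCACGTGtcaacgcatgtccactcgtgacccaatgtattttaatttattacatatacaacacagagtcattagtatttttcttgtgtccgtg
FER4 (AT2G40300), chr2:16833295-16833444, minus strand: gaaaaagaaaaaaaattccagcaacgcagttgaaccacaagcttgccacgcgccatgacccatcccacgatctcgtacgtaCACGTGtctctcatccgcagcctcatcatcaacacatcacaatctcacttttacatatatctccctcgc
FER1 (AT5G01600), chr5:230052-230201, minus strand: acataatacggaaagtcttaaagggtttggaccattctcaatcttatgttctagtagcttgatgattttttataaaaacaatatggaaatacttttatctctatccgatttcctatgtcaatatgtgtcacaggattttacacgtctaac

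The first base of the motif lay 146, 124 and 70 bases before the start in BTS, 78 bases in OPT3, 97 bases in bHLH38, 91 bases in bHLH100 and 69 bases in FER4, and the FER1 window does not contain these letters. Windows with the motif made up 7 of 58 (12.1%) among the loci that were higher in IMA1 OE, 10 of 42 with a window (23.8%) among those that were lower, and 1072 of 19316 (5.55%) among all tested loci with a window. These shares describe letters in a window of fixed length and say nothing of binding.

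Genes that move iron within the plant split in direction. Of 20 tested members of that list, 5 were lower and 2 were higher in IMA1 OE, and the median log2 difference was -0.12. The 5 lower genes include known targets of PYE. ZIF1, a vacuolar transporter of the metal chelator nicotianamine, had 17.9 and 19.4 RPKM in IMA1 OE, against 99.4 and 148 RPKM in EYFP (-2.67, SE 0.23, limma, adjusted p = 0.000372). NAS4, a nicotianamine synthase, had 10.8 and 12.2 RPKM in IMA1 OE, against 62.9 and 80.3 RPKM in EYFP (-2.58, SE 0.21, limma, adjusted p = 0.000317). FRO3, a ferric reductase of mitochondria, had 13.3 and 19.7 RPKM in IMA1 OE, against 69.2 and 120 RPKM in EYFP (-2.46, SE 0.30, limma, adjusted p = 0.00388).

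OPT3, which loads iron into the phloem and whose promoter window is printed above, had 32.6 and 52.4 RPKM in IMA1 OE, against 169 and 260 RPKM in EYFP (log2 difference -2.33, SE 0.29, limma, adjusted p = 0.00388). NRAMP4, which releases iron from the vacuole, had 14.7 and 17.3 RPKM in IMA1 OE, against 41.0 and 62.1 RPKM in EYFP (-1.63, SE 0.20, limma, adjusted p = 0.00368). With IMA1 OE replicate 1 left out, the adjusted p was 0.0553 for OPT3, 0.0642 for FRO3 and 0.0632 for NRAMP4 (limma), while ZIF1 and NAS4 kept their calls in all 4 fits that left out 1 library.

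The 2 transport genes that were higher also act through nicotianamine. NAS3, a second nicotianamine synthase gene, had 20.7 and 14.5 RPKM in IMA1 OE, against 3.01 and 0.42 RPKM in EYFP (log2 difference 3.31, SE 0.55, limma, adjusted p = 0.0221). YSL1, a transporter of metal-nicotianamine complexes in leaves, had 22.3 and 19.0 RPKM in IMA1 OE, against 6.42 and 3.08 RPKM in EYFP (2.08, SE 0.28, limma, adjusted p = 0.0064). NAS3 and NAS4, which encode the same enzyme activity, therefore differed between the lines in opposite directions. Without IMA1 OE replicate 1 the adjusted p was 0.257 for NAS3 and 0.0987 for YSL1 (limma).

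None of the 12 tested genes of iron uptake and coumarin secretion passed (median log2 difference 0.07). F6'H1, which makes the coumarins that roots release to mobilise iron, had 0.81 and 0.7 RPKM in IMA1 OE, against 1.23 and 4.05 RPKM in EYFP (-1.16, limma, adjusted p = 0.801). The other 11 tested genes of the list lay between -0.97, the value of the ferric reductase gene FRO2, and 0.38. FRO2 had 1.56 and 1.26 RPKM in IMA1 OE, against 3.03 and 3.44 RPKM in EYFP, and did not pass (limma, adjusted p = 0.212).

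Of 7 tested iron storage genes, 3 were higher in IMA1 OE and none was lower, with a median log2 difference of 1.71 over the 7. FER1, the main leaf ferritin of the chloroplast, had 247 and 123 RPKM in IMA1 OE, against 9.59 and 4.66 RPKM in EYFP (4.60, SE 0.62, limma, adjusted p = 0.0067). FER4, a second ferritin, had 113 and 77.4 RPKM in IMA1 OE, against 16.02 and 7.92 RPKM in EYFP (3.00, SE 0.36, limma, adjusted p = 0.00295). VTL2, a vacuolar iron transporter-like gene, had 7.59 and 6.75 RPKM in IMA1 OE, against 1.39 and 1.91 RPKM in EYFP (1.84, SE 0.28, limma, adjusted p = 0.0131). In IMA1 OE the higher ferritin library was replicate 1, and without it the adjusted p was 0.108 for FER1 and 0.0547 for FER4 (limma), with log2 differences of 4.1 and 2.51. VTL2 lost its call in each of the 4 fits that left out 1 library, with an adjusted p of up to 0.167 (limma).

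The other 4 tested storage genes were also above 0 on the log2 scale without passing. VTL1 had 2.12 and 2.34 RPKM in IMA1 OE, against 0.41 and 0.26 RPKM in EYFP (1.71, limma, adjusted p = 0.0544). The other 3, a further VTL gene and the ferritins FER2 and FER3, lay between 0.46 and 1.19.

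Among the 21 genes of iron-sulfur cluster assembly and ferredoxins, 4 were higher and none lower, with a median log2 difference of -0.02. NEET, a protein that carries an iron-sulfur cluster and acts in iron and cluster handling, had 269 and 203 RPKM in IMA1 OE, against 10.6 and 3.41 RPKM in EYFP, the largest log2 difference of all called loci that were higher (5.15, SE 0.48, limma, adjusted p = 0.000567). ENH1, a rubredoxin of chloroplasts, had 256 and 196 RPKM in IMA1 OE, against 44.7 and 22.8 RPKM in EYFP (2.79, SE 0.32, limma, adjusted p = 0.00241). SUFB, the scaffold subunit of the plastid cluster assembly complex, had 126 and 117 RPKM in IMA1 OE, against 33.6 and 19.8 RPKM in EYFP (2.21, SE 0.22, limma, adjusted p = 0.000734). These 3 calls held in each of the 4 fits that left out 1 library.

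FD2, the major leaf ferredoxin of photosynthetic electron transport, had 2559 and 1978 RPKM in IMA1 OE, against 1111 and 861 RPKM in EYFP (log2 difference 1.2, SE 0.22, limma, adjusted p = 0.0451), a call that was lost in every fit that left out 1 library, with an adjusted p of up to 0.463. The other 17 genes of the list did not pass, so that the calls came from 4 of its 21 tested genes. Outside the lists, 3 further genes of iron or iron-sulfur proteins were picked after their values were seen. AT5G51010, annotated as a rubredoxin-like protein, had 140 and 132 RPKM in IMA1 OE, against 49.0 and 40.9 RPKM in EYFP (1.59, SE 0.15, limma, adjusted p = 0.000652). ACO3, an aconitase, had 104 and 85.0 RPKM in IMA1 OE, against 42.5 and 27.04 RPKM in EYFP (1.46, SE 0.21, limma, adjusted p = 0.0104). SIR, the sulfite reductase that holds siroheme and an iron-sulfur cluster, had 164 and 207 RPKM in IMA1 OE, against 98.7 and 94.2 RPKM in EYFP (0.93, SE 0.14, limma, adjusted p = 0.0114). Without 1 of the IMA1 OE libraries ACO3 and SIR no longer passed (limma, adjusted p = 0.156 without replicate 1 for ACO3 and 0.104 without replicate 2 for SIR).

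Of 15 tested enzymes that remove superoxide and peroxide, 2 were higher in IMA1 OE and none was lower, with a median log2 difference of 0.17. sAPX, the ascorbate peroxidase of the chloroplast stroma and a heme enzyme, had 88.9 and 90.2 RPKM in IMA1 OE, against 22.8 and 8.46 RPKM in EYFP (2.64, SE 0.39, limma, adjusted p = 0.0105). APX1, the cytosolic ascorbate peroxidase, had 356 and 270 RPKM in IMA1 OE, against 135 and 81.3 RPKM in EYFP (1.56, SE 0.27, limma, adjusted p = 0.03). Both calls were lost without IMA1 OE replicate 1, at an adjusted p of 0.125 for sAPX and 0.342 for APX1 (limma). FSD1, the superoxide dismutase that uses iron, had 56.5 and 127 RPKM in IMA1 OE, against 17.2 and 12.8 RPKM in EYFP (2.47, limma, adjusted p = 0.0947). CAT3, a catalase, had 1797 and 1113 RPKM in IMA1 OE, against 546 and 302 RPKM in EYFP (1.8, limma, adjusted p = 0.196). For FSD1 and CAT3 the groups did not overlap, as in 34.1% of all loci tested, and neither passed.

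The lists of chlorophyll and heme synthesis and of nuclear photosynthesis genes held no call. Calls outside these lists included FD2, given above, and 2 genes picked after their values were seen. These were AT3G47070, annotated as a thylakoid soluble phosphoprotein, and AT5G59400, annotated as a PGR5-like protein. HEMA1, the glutamyl-tRNA reductase gene at the entry of chlorophyll and heme synthesis, had 245 and 320 RPKM in IMA1 OE, against 83.4 and 41.4 RPKM in EYFP, and lay just outside the threshold (log2 difference 2.24, limma, adjusted p = 0.0512). The median over the 22 tested genes of chlorophyll and heme synthesis was 0.02. The 34 nuclear photosynthesis genes, which encode light-harvesting, photosystem and Rubisco subunits, had a median of 0.04 and values between -0.58 and 0.74. The lists of copper uptake and copper proteins (13 tested, median 0.01) and of zinc transport (8 tested, median -0.02) also had no call.

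**Figure D3:**
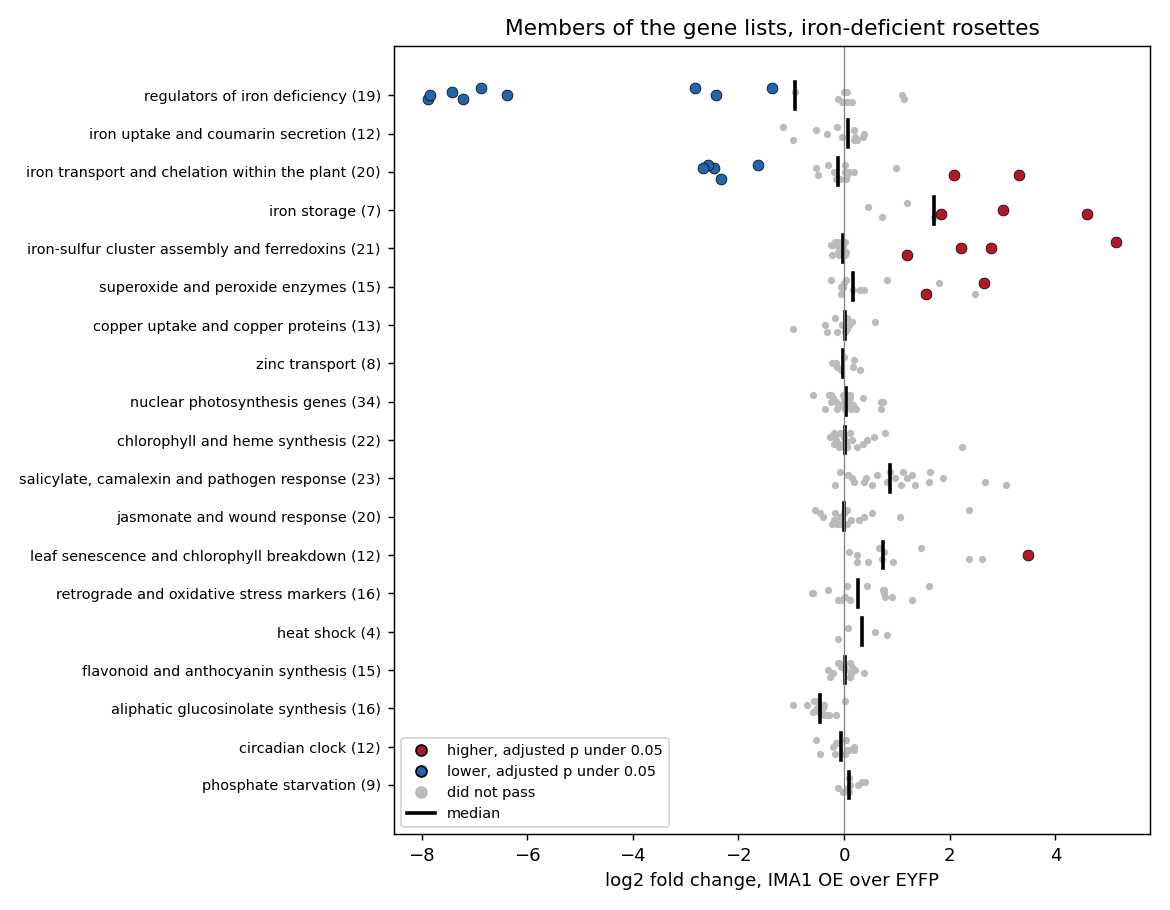
Log2 differences, IMA1 OE minus EYFP in iron-deficient rosettes, of the tested members of each gene list, with red or blue points for members higher or lower past an adjusted p of 0.05, grey points for the others, a bar at the median and the number tested in brackets. The regulators have their median at -0.93 and iron storage at 1.71, and the photosynthesis genes lie between -0.58 and 0.74.

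Several of the loci that differed most have no described function in the annotation used. AT3G01345 (chr3:129138-130749 on TAIR10.1) had the smallest adjusted p of the comparison, with 0.08 and 0.18 RPKM in IMA1 OE, against 166 and 124 RPKM in EYFP (log2 difference -7.84, SE 0.29, limma, adjusted p = 6.83e-07). AT5G15360 (chr5:4987437-4989182) had 0.1 and 0.02 RPKM in IMA1 OE, against 17.36 and 10.52 RPKM in EYFP (-4.65, SE 0.27, limma, adjusted p = 2.58e-05). AT2G14247 (chr2:6034282-6035375) had 0.36 and 3.84 RPKM in IMA1 OE, against 220 and 355 RPKM in EYFP (-7.18, SE 0.67, limma, adjusted p = 0.000567). All 3 are annotated only as uncharacterized proteins, and both IMA1 OE libraries were far below both EYFP libraries.

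Loci near AT2G14247, IMA1 and IMA3 were also called. AT2G14230 and AT2G14245, pseudogenes within a few kilobases of AT2G14247 and named after their values were seen, differed by -3.33 and -3.06 on the log2 scale (limma, adjusted p = 0.00388 and 0.00281). AT1G47405, a pseudogene near IMA1 and chosen in the same way, differed by -3.06 (limma, adjusted p = 0.00897), and AT2G30760, whose annotated span overlaps that of IMA3, by -3.01 (limma, adjusted p = 0.00536). RefSeq has no entry for AT1G47402, AT1G47407 and AT2G44744, whose positions are not given here and which differed by -6.26, -5.97 and -5.73 (limma, adjusted p = 0.000317, 2.58e-05 and 0.000474). Without IMA1 OE replicate 1 the adjusted p was 0.0547 for AT2G14230, 0.125 for AT1G47405 and 0.0649 for AT2G30760 (limma). Whether counting used strand is not given in the sources used here, so reads of overlapping or similar loci cannot be told apart and these values are uncertain.

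ORG1, AT5G05250 and AT4G36700 completed the largest decreases. ORG1 (OBP3-responsive protein 1) had 22.4 and 20.9 RPKM in IMA1 OE, against 286 and 361 RPKM in EYFP (log2 difference -3.86, SE 0.41, limma, adjusted p = 0.00133). AT5G05250, an uncharacterized protein, had 3.27 and 8.09 RPKM in IMA1 OE, against 118 and 162 RPKM in EYFP (-4.61, SE 0.57, limma, adjusted p = 0.004). AT4G36700, a cupin, had 0.11 and 0.24 RPKM in IMA1 OE, against 3.5 and 32.5 RPKM in EYFP (-4.1, SE 0.69, limma, adjusted p = 0.0251), so its EYFP libraries differed widely from each other. Without IMA1 OE replicate 1 the adjusted p was 0.0637 for AT5G05250 and 0.24 for AT4G36700 (limma), and ORG1 kept its call in all 4 fits that left out 1 library. The 5.8S rRNA locus AT3G41979, picked after its values were seen, had 128 and 373 RPKM in IMA1 OE, against 3189 and 2843 RPKM in EYFP (-3.78, limma, adjusted p = 0.0221). The libraries were made from polyadenylated RNA, and the call was lost in 3 of the 4 fits that left out 1 library.

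Among the loci that were higher, the copper amine oxidase family gene AT3G43670 gave the smallest adjusted p, with 25.8 and 16.4 RPKM in IMA1 OE, against 1.69 and 1.06 RPKM in EYFP (log2 difference 3.51, SE 0.24, limma, adjusted p = 8.67e-05). AT3G49160, annotated in the pyruvate kinase family, had 18.3 and 13.8 RPKM in IMA1 OE, against 0.62 and 0.18 RPKM in EYFP (4.23, SE 0.50, limma, adjusted p = 0.00288). SAG13, a marker of leaf senescence that encodes a short-chain dehydrogenase, had 13.8 and 7.9 RPKM in IMA1 OE, against 0.44 and 0.52 RPKM in EYFP (3.48, SE 0.60, limma, adjusted p = 0.0287). AT3G43670 kept its call in all 4 fits that left out 1 library. SAG13 lost it in each of them, with an adjusted p of up to 0.32 (limma), and AT3G49160 lost it without IMA1 OE replicate 1 (0.0544). Smaller called differences were those of AT2G36885 at 2.88, AT1G68650 at 2.42, DAR6 at 2.31 and AT5G39520 at 2.30 on the log2 scale (limma, adjusted p = 0.00545, 0.00758, 0.00951 and 0.0131). These 4 lost their calls in at least 1 fit that left out an IMA1 OE library, at an adjusted p of up to 0.07, 0.0899, 0.148 and 0.177 (limma).

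SAG13 was the only call among the 12 tested genes of leaf senescence, whose median log2 difference was 0.74. The senescence regulator NAP differed by 2.61 (limma, adjusted p = 0.206), the chlorophyll b reductase gene NYC1 by 2.37 (limma, adjusted p = 0.168) and WRKY75 by 1.46 (limma, adjusted p = 0.683), all without passing. No member of the salicylate, camalexin and pathogen response list passed (23 tested), although the median was 0.86. PR1, a pathogenesis-related marker of salicylate signalling, had 68.8 and 62.3 RPKM in IMA1 OE, against 2.96 and 17.5 RPKM in EYFP (3.06, limma, adjusted p = 0.338). CYP71A12, an enzyme of camalexin-related synthesis, had 13.6 and 3.02 RPKM in IMA1 OE, against 0.68 and 0.56 RPKM in EYFP (2.66, limma, adjusted p = 0.188). Within their line, the 2 EYFP values of PR1 and the 2 IMA1 OE values of CYP71A12 lay far apart. On control medium the medians were 0.64 for the senescence list and 1.22 for the salicylate, camalexin and pathogen list. SAG13 and PR1 each differed by 3.6 there, and no member of either list was called, so differences of this size were not limited to medium without iron.

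The remaining lists had no call either. Retrograde and oxidative stress markers (16 tested) had a median log2 difference of 0.27, with AOX1D, an alternative oxidase of mitochondria, at 1.61 and OM66 at 1.28 (limma, adjusted p = 0.672 and 0.393). Jasmonate and wound response genes (20 tested) had a median of 0, with the defensin PDF1.2 at 2.37 and the lipoxygenase LOX4 at 1.05 (limma, adjusted p = 0.753 and 0.709). The 16 genes of aliphatic glucosinolate synthesis lay between -0.96 and 0.01 with a median of -0.45. The medians of flavonoid and anthocyanin synthesis (15 tested), the circadian clock (12), phosphate starvation (9) and heat shock (4) were 0.01, -0.05, 0.09 and 0.33.

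The same lines were compared on control medium to see how far the difference depended on iron supply. There 14 of 19525 loci passed (0.0717%), 5 higher (0.0256%) and 9 lower (0.0461%) in IMA1 OE. The 2 comparisons share no library, and 86 of the 104 iron-deficient calls were tested on control medium. They had 8 calls in common, which is 7.69% of the iron-deficient calls and 57.1% of the control-medium calls, and all 8 had the same direction on both media: IMA3, IMA2, AT3G01345, AT5G15360, AT3G56360 and AT5G34795 were lower, and AT2G43150, an extensin-like gene, and the urea transporter gene DUR3 were higher. On control medium IMA3 had 0.03 and 0.12 RPKM in IMA1 OE, against 49.1 and 10.07 RPKM in EYFP (log2 difference -5.32, limma, adjusted p = 0.0481). IMA2 had 0.2 and 0.2 RPKM in IMA1 OE, against 11.3 and 4.64 RPKM in EYFP (-3.48, limma, adjusted p = 0.0379). IMA2 and IMA3 thus lay below EYFP with iron present as well, from a lower EYFP level. Their control-medium calls were lost in 3 of the 4 fits that left out 1 library, in which 3 to 20 loci passed, and 3 loci kept the call in every fit: IMA1, AT3G01345 and AT5G15360.

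Many of the other genes were closer together on control medium. BTS had 18.6 and 16.9 RPKM in IMA1 OE, against 30.3 and 17.62 RPKM in EYFP, and NAS4 had 8.92 and 9.78 RPKM in IMA1 OE, against 22.96 and 17.85 RPKM in EYFP. The higher value in both was EYFP replicate 1. NEET had 255 and 267 RPKM in IMA1 OE, against 100 and 233 RPKM in EYFP, and SUFB had 128 and 140 RPKM in IMA1 OE, against 96.0 and 117 RPKM in EYFP. FER1 had 1282 and 1002 RPKM in IMA1 OE, against 57.0 and 278 RPKM in EYFP, so ferritin transcript was higher in IMA1 OE on both media without passing the test on control medium. Over the 29 lower calls that could be tested on control medium, the median log2 difference was -2.58 on iron-deficient medium and -0.59 on control medium. The lower calls left out of these medians fell under the filter on control medium and include bHLH38, bHLH39, bHLH101, AT1G47402 and AT1G47407. Over the 57 higher calls it was 1.46 on iron-deficient medium and 0.53 on control medium. These loci were selected on the iron-deficient values, which favours larger medians there.

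The dependence on medium was tested directly as the log2 difference on iron-deficient medium minus that on control medium. None of 19343 loci passed (limma, smallest adjusted p = 0.136), and 339 had an unadjusted p under 0.05. Loci under the filter on control medium were not in that test, among them bHLH38, bHLH39, bHLH101, AT1G47402, AT1G47407 and AT2G44744. The difference between media was -6.44 (SE 0.93) for bHLH100 (limma, adjusted p = 0.136), -2.46 for BTS and 4.38 for NEET (limma, adjusted p = 0.157 for both), and -2.27 for ZIF1 (0.136). It was -5.29 for IMA1 (limma, adjusted p = 0.136). When loci were filtered on all 16 rosette libraries instead, AT1G47407 alone passed, at -5.33 (limma, adjusted p = 0.00924), and without iron-deficient EYFP replicate 1, 16 loci passed. Under the filter over 16 libraries bHLH38, AT1G47402 and bHLH39 had differences of -7.04, -5.8 and -6.31 (limma, adjusted p = 0.0563, 0.0563 and 0.0675). On control medium these loci and AT1G47407 had a mean under 0.5 RPKM, where the added 0.5 RPKM holds the fold change down. They entered through libraries in which they were high, so their p-values are no independent evidence of a dependence on medium. The count of loci passing thus depended on which loci the filter let in. A dependence on medium was therefore not shown for bHLH100, BTS, NEET or ZIF1 in a fit that did not pair libraries by replicate number. With 2 libraries in each of the 4 groups, equality of the 2 media was not shown either. Some loci passed this test of medium with the replicate number as a block, as given in the last section.

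Chosen after the data were seen, a further comparison set iron-deficient IMA1 OE rosettes against EYFP rosettes that had iron, inside the table that holds those 4 libraries. Only 9 of 19484 loci passed (0.0462%), 6 higher (0.0308%) and 3 lower (0.0154%). BTS had 19.0 and 19.8 RPKM in iron-deficient IMA1 OE, against 30.2 and 17.5 RPKM in EYFP with iron (log2 difference -0.24). The corresponding differences were -0.29 for ZIF1, -0.43 for OPT3, -0.44 for ORG1 and -0.54 for PYE. NEET had 267 and 202 RPKM in iron-deficient IMA1 OE, against 99.4 and 231 RPKM in EYFP with iron (0.61), and the differences were 0.20 for SUFB, 0.16 for ENH1, 0.21 for sAPX, 0.47 for FER1 and 0.49 for FER4. For each of these genes the difference from EYFP with iron was smaller in size than the difference from EYFP without iron, and the change between the 2 differences, which share the IMA1 OE libraries, was not tested. These 11 genes were picked after their values were seen, and other genes stayed further from EYFP with iron, among them IMA3 at -3.93, IMA2 at -1.94, AT2G14247 at -1.52 and AT5G05250 at -1.18. None of the 15 passed, which does not show that they were equal.

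In that comparison the largest called differences were AT3G01345 at -7.75, IMA1 at 6.31 and AT5G15360 at -4.77 on the log2 scale. Smaller called differences included those of 3 genes of copper-dependent superoxide removal. CSD2, the copper/zinc superoxide dismutase of the chloroplast, had 746 and 795 RPKM in iron-deficient IMA1 OE, against 170 and 212 RPKM in EYFP with iron (log2 difference 2.02, limma, adjusted p = 0.0152). CSD1, its cytosolic counterpart, had 429 and 420 RPKM in iron-deficient IMA1 OE, against 127 and 124 RPKM in EYFP with iron (1.75, limma, adjusted p = 0.0415). CCS, their copper chaperone, had 123 and 132 RPKM in iron-deficient IMA1 OE, against 38.4 and 35.7 RPKM in EYFP with iron (1.77, limma, adjusted p = 0.0457). All 3 calls were lost in each fit that left out 1 library, with an adjusted p of up to 0.414 (limma). Between the 2 lines without iron, CSD2, CSD1 and CCS differed by only 0.17, 0.31 and -0.02 on the log2 scale and did not pass, the CCS value changing sign when 1 library was left out. FSD1 had 56.1 and 126 RPKM in iron-deficient IMA1 OE, against 393 and 666 RPKM in EYFP with iron (-2.60), without passing. CSD2 and FSD1 thus stood on opposite sides of EYFP with iron, FSD1 without a call.

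**Figure D4:**
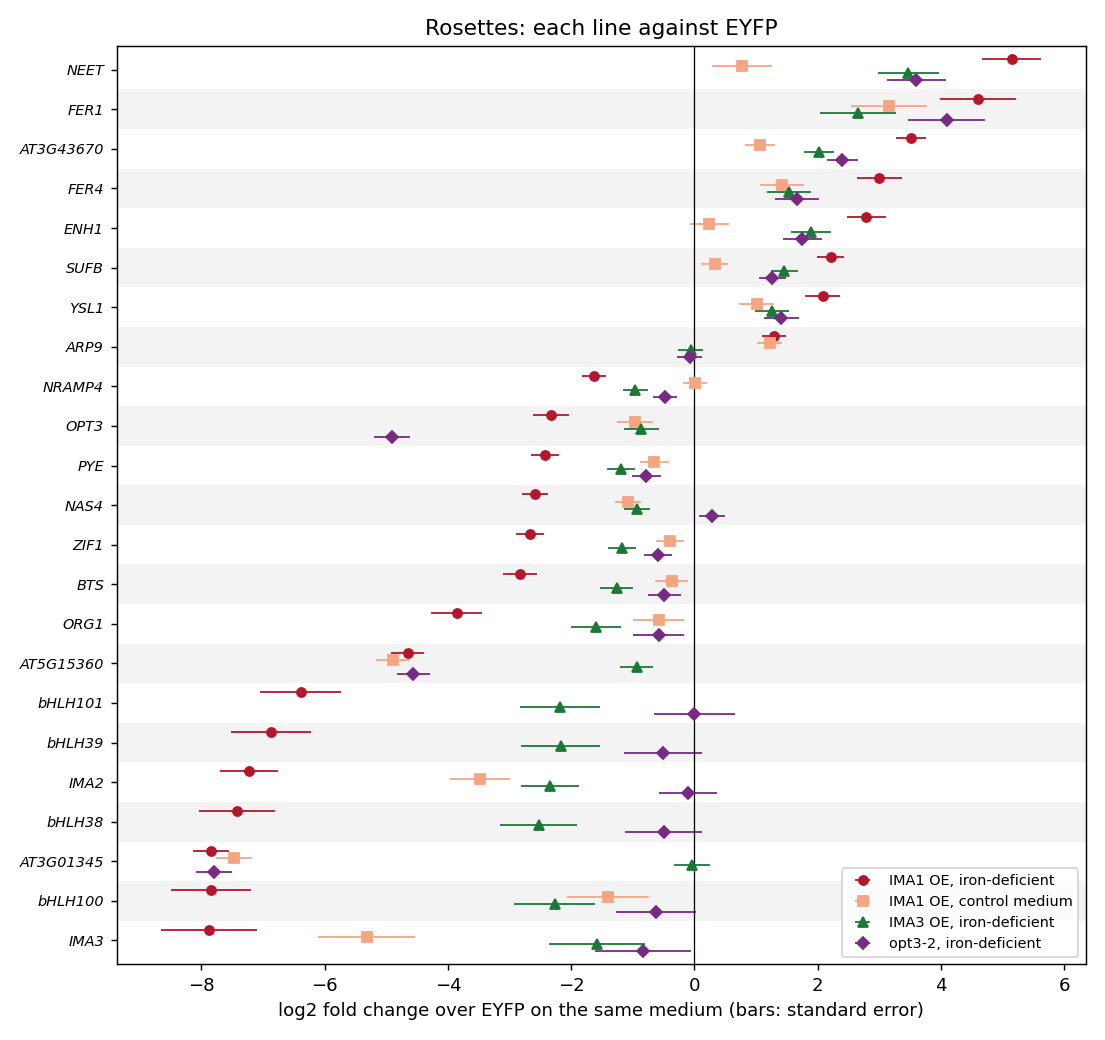
Log2 differences from EYFP on the same medium, with bars of 1 SE, for IMA1 OE without iron, IMA1 OE on control medium, and IMA3 OE and opt3-2 without iron, the last 2 against the same EYFP libraries as the first; a gene under the filter in a table has no point for it. bHLH38 reads -7.42 for IMA1 OE without iron, -2.53 for IMA3 OE and -0.50 for opt3-2, while NEET reads 5.15, 3.47 and 3.6.

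The difference between IMA1 OE and the IMA3 OE and opt3-2 lines was tested within iron-deficient rosettes. The comparisons of the 3 lines with EYFP share the 2 EYFP libraries, which drop out when the lines are subtracted from each other. Between IMA1 OE and IMA3 OE, 16 of 19369 loci differed (0.0826%), 15 lower in IMA1 OE (0.0774%) and 1 higher (0.00516%). IMA3 (-6.30), bHLH100 (-5.57), bHLH38 (-4.89), IMA2 (-4.88), bHLH39 (-4.71) and NAS4 (-1.64) were all lower in IMA1 OE than in IMA3 OE on the log2 scale (limma, adjusted p = 0.017, 0.0114, 0.0171, 0.00212, 0.0226 and 0.0177). With 1 library left out at a time 6 to 8 loci passed, and of these genes only IMA2 kept its call in all 4 fits, the others reaching an adjusted p of up to 0.306 (limma). The IMA3 construct had 26.7 and 27.3 RPKM in IMA3 OE, and at the IMA3 locus that line was not above EYFP (log2 difference -1.58, not called). bHLH38 had 18.9 and 25.5 RPKM in IMA3 OE (log2 difference from EYFP -2.53), against 76.6 and 219 RPKM in EYFP. The only locus that was higher in IMA1 OE than in IMA3 OE was ARP9, an actin-related protein gene named after its values were seen, at 1.35 (limma, adjusted p = 0.0397), a call lost in all 4 fits.

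Between IMA1 OE and opt3-2, 36 of 19367 loci differed (0.186%), 26 lower (0.134%) and 10 higher (0.0516%) in IMA1 OE. bHLH100 (-7.23), IMA2 (-7.11), IMA3 (-7.04), bHLH38 (-6.92), bHLH101 (-6.39) and bHLH39 (-6.37) were lower in IMA1 OE than in opt3-2 (limma, adjusted p between 0.000143 and 0.00281). The same held for ORG1 (-3.28), NAS4 (-2.86), BTS (-2.34), ZIF1 (-2.08), FRO3 (-2.02) and PYE (-1.64) (limma, adjusted p between 0.000224 and 0.0247). The IMA and bHLH genes, NAS4, ZIF1 and OPT3 kept these calls in all 4 fits that left out 1 library, in which 18 to 23 loci passed, while FRO3 and PYE lost theirs in each, ORG1 in 3, and BTS and VTL5 in 2 of the 4. In opt3-2 bHLH38 had 107 and 78.8 RPKM, against 77.5 and 219 RPKM in EYFP (-0.50). OPT3, the gene disrupted in opt3-2, was higher in IMA1 OE by 2.59 (limma, adjusted p = 0.00281), and VTL5 by 2.48 (limma, adjusted p = 0.00702).

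NEET and FER1, both above EYFP in IMA1 OE, were not called between the lines. Against EYFP, 12 loci passed in IMA3 OE (0.0616% of those tested) and 10 in opt3-2 (0.0513%). NEET had 88.1 and 57.7 RPKM in IMA3 OE, against 10.5 and 3.32 RPKM in EYFP (log2 difference 3.47, limma, adjusted p = 0.0412). In opt3-2 it had 102 and 61.1 RPKM, against 10.7 and 3.38 RPKM in EYFP (3.6, limma, adjusted p = 0.0293). NEET was thus called in each of the 3 lines against the same EYFP libraries, although both of these calls were lost in 3 of the 4 fits that left out 1 library, and its difference between IMA1 OE and either line was not called. FER1 had 49.9 and 39.5 RPKM in IMA3 OE, against 9.48 and 4.61 RPKM in EYFP (2.65, limma, adjusted p = 0.381). In opt3-2 FER1 had 149 and 101 RPKM, against 9.67 and 4.69 RPKM in EYFP (4.09, limma, adjusted p = 0.0761). The difference of IMA1 OE minus opt3-2 was 0.51 for FER1 and 1.55 for NEET, and that of IMA1 OE minus IMA3 OE was 1.95 for FER1 and 1.68 for NEET, none of them called.

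AT3G01345 and AT5G15360 divided the lines another way. AT3G01345 had 160 and 122 RPKM in IMA3 OE, against 167 and 124 RPKM in EYFP (log2 difference -0.04), and 0.2 and 0.11 RPKM in opt3-2, against 167 and 124 RPKM in EYFP (-7.79). AT5G15360 had 6.87 and 6.61 RPKM in IMA3 OE, against 17.2 and 10.4 RPKM in EYFP (-0.94), and 0.1 and 0.1 RPKM in opt3-2, against 17.5 and 10.6 RPKM in EYFP (-4.56). With iron, AT3G01345 had 0.56 and 0.05 RPKM in IMA1 OE, against 140 and 130 RPKM in EYFP. Both loci were therefore near 0 in IMA1 OE on either medium and in opt3-2, and AT3G01345 was not low in IMA3 OE, a pattern unlike that of the bHLH genes. AT5G34795, a transcribed pseudogene picked after its values were seen, was also lower in IMA1 OE (-1.73) and opt3-2 (-1.36), and not called in IMA3 OE (-0.09). Its opt3-2 call was lost in 3 of the 4 fits that left out 1 library (limma, adjusted p up to 0.131).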

How the data were processed

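Polyadenylated RNA of whole rosettes was sequenced from stranded libraries, per the labels' protocols. Per the submitters' processing notes, the TAIR10 build was used with limma 3.26.9, edgeR 3.12.1, Bowtie2 2.0.6, Trimmomatic 0.35 and bcl2fastq 1.8.4, whose roles are not given. The authors deposited tables of 2 groups each. RPKM values per library are the deposited unit as read from their range, since no header names it, and their near-equal distributions show equalisation by the authors, which removes global shifts. The tables also hold the authors' Z-test p-value and the authors' log2 fold change, per the file headers. Read counts were not analysed here, so no depth or counting interval is given.

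Values were taken as log2(RPKM + 0.5) and differences computed inside 1 table. The 9 tables used were normalised separately, so levels set side by side from different tables were not tested. The residual spread came from all 8 rosette groups (8 degrees of freedom) and was moderated with limma 3.58.1 in R 4.3.3 (squeezeVar with trend), and p-values were adjusted by Benjamini-Hochberg over all loci tested. A fold change on this scale understates the change of low genes. The fit was run on simulated data whose noise was independent and had the same spread in every group. Such data cannot show whether sharing the spread over the 8 rosette groups is sound. The comparison of iron-deficient IMA1 OE with control-medium EYFP was added after seeing the data. Members, gene lists and tests were chosen with earlier results of these data known. Genes named are IMA1, the 15 largest called differences in each direction with groups that do not overlap, every list member called, and among the up to 4 largest of each list those of at least 2-fold, besides genes said to be chosen after their values were seen and the list members at the ends of a range. Loci were matched to RefSeq (32835 of 33607, 97.7%), whose TAIR10.1 coordinates and sequences are printed, since the tables hold none.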

Additional observations from a re-analysis of the deposited data

Results flagged for a closer look

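The construct feature for IMA1, which was outside the tests across loci, carried a signal in the iron-deficient IMA1 OE rosettes that the control line lacked, with a mean of 204 RPKM (212 and 197 RPKM in IMA1 OE, against 0.02 and 0.03 RPKM in EYFP).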

How the results depend on the processing

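The count of 104 loci that differed between IMA1 OE and EYFP rosettes without iron was 107 and 103 with pseudocounts of 0.1 and 1, 108 without a filter on low values, 98 and 99 with stricter or wider filters and 114 with libraries rescaled to one total. It was 11 when the spread came from the IMA1 OE and EYFP groups only, 54 when it came from the 4 iron-deficient groups, and 182 when the p-values in the authors' deposited table were adjusted here, of which 53 were shared. It ranged from 32 to 100 with 1 library left out, at 32 and 52 without IMA1 OE replicate 1 and 2, and 62 without EYFP replicate 2. With the replicate number as a block it was 234, and the counts below became 7, 24 and 47. The labels do not say that the numbers pair the samples. Deviations of same-numbered libraries of IMA1 OE and EYFP without iron had a correlation of 0.17 across loci. Over 28 pairs of rosette groups the correlation lay between -0.01 and 0.57, and it was above 0.17 in most. The count of 0 for the dependence on medium was 23 without a filter, 1 with the filter over 16 libraries, 1 with the iron-deficient spread, and 0 to 16 with 1 library left out. The 16 loci between IMA1 OE and IMA3 OE were 27 without a filter, 7 with the iron-deficient spread and 6 to 8 with 1 library left out. The 36 between IMA1 OE and opt3-2 were 59, 22 and 18 to 23 in those settings, and 17 when the spread came from those 2 lines only. In the fits made here IMA1 stayed between 0.77 and 1.42 and never passed. By the authors' deposited Z-test p-value, adjusted here, IMA1 did pass, at the authors' log2 fold change of 1.07. The CCS difference ran from -0.08 to 0.04 with 1 library left out, and the median of the storage genes was 2.07 and 1.28 with pseudocounts of 0.1 and 1. Of 55 named genes that passed, 25 kept the call in all 4 such fits. Fits with a spread from fewer groups or a left-out library hold fewer samples, and the cause of the moves was not tested for any setting.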
